A study of Homo sapiens with 3 samples.

Results

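Axon guidance genes were examined in Caco-2 cells depleted of OCC-1, a transcript of the gene C12orf75. The group holds the semaphorins, plexins, neuropilins, ephrins, Eph receptors, slits, ROBO receptors, netrins, UNC5 receptors, DPYSL proteins and FLRT proteins whose symbols matched fixed name patterns (of the EphB receptors, EPHB1, EPHB4 and EPHB6). It comprised 216 of the 49395 probe sets on the array and 73 of its 18132 named genes. Caco-2 is an established colorectal cancer line of epithelial character. Total RNA was measured on 3 arrays. Knockdown line 1 expressed the hairpin shOCC-1-1, knockdown line 2 expressed the hairpin shOCC-1-2, and the control expressed shCTRL, a hairpin without a target. All 3 cultures had received a hairpin lentivirus, were kept in MEM with 20% serum, spent 5 days under puromycin at 1 µg per ml and a further 24 hours without it. Each culture gave 1 array, and the labels do not say whether a culture was a pool or a clone of transduced cells.

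Guidance cues and their receptors are known as the steering system of growing axons, and the same families also act between epithelial cells. Secreted or membrane-bound semaphorins signal through plexins, with neuropilins as co-receptors for the secreted class 3 forms. Ephrins on 1 cell bind Eph receptor tyrosine kinases on its neighbour, and in the intestinal crypt such contacts help to position cells. Slits act through ROBO receptors, netrins through DCC and UNC5 receptors, and FLRT proteins are adhesive transmembrane proteins that also bind UNC5 receptors. The DPYSL proteins, also called collapsin response mediator proteins, work inside the cell, where they bind tubulin and relay semaphorin signals to the cytoskeleton.

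Depletion of OCC-1 was accompanied by sizeable differences in 3 guidance genes and by small ones in most others. NTN4, which encodes a secreted netrin of basement membranes, was higher in both knockdown lines, at 1.81-fold of control in each, on 1 of its 2 probe sets above the filter. The other NTN4 probe set had a mean log2 difference of -0.03. DPYSL3, a cytoskeletal mediator, was lower by 1.67-fold with the first hairpin and by 1.68-fold with the second. FLRT3, an adhesion protein, was lower by 1.74-fold and 1.61-fold. DPYSL3 and FLRT3 had been picked with their decrease in these arrays known, so their values are a description. For each gene the brightest probe set was taken, and a gene was kept if its mean over the 3 arrays reached the median of all probe sets (an intensity of 184). This filter kept 46 of the 73 guidance genes and 11329 genes in all. The rule of size asked each hairpin separately for a change of 1.5-fold or more, in a shared direction. By it 1 of the 46 was higher, where the share among all genes was 1.36%. By the same rule 2 of the 46 were lower, where the share among all genes was 0.159%. These 2 are the genes picked with results known, so nothing is read from that count. With the mean of a gene's probe sets in place of the brightest, none of the 3 passed the size rule.

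NTN4 promoter: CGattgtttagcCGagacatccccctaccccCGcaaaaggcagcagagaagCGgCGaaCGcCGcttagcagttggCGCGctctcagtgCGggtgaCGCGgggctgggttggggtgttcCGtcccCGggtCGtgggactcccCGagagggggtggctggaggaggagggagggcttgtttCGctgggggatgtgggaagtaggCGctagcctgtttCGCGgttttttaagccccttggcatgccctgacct
DPYSL3 promoter: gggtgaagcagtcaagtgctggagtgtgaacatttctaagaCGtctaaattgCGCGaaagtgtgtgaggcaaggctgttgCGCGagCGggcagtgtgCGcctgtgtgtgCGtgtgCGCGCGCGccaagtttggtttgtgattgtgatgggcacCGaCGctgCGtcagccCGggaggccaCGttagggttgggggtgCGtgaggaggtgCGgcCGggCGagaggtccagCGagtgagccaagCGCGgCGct
FLRT3 promoter: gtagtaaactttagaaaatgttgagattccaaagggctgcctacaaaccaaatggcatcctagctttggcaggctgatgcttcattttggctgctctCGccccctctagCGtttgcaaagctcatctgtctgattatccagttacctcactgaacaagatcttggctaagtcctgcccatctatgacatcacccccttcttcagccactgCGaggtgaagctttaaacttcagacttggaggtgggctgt
These are the 250 bases before the annotated start of the 3 genes that passed the size rule, shown because they are the sites from which the changed transcripts are annotated to begin. They come from RefSeq (GRCh38.p14) and are written 5′ to 3′ along the gene's strand, with every CG dinucleotide in capitals. The NTN4 stretch lies at chr12:95791156-95791405 on the minus strand, that of DPYSL3 at chr5:147510069-147510318 on the minus strand, and that of FLRT3 at chr20:14337613-14337862 on the minus strand. NTN4 and DPYSL3 have 20 and 25 CG dinucleotides here, against medians of 17 over the guidance promoters and 11 over all 27305 promoters of this length. FLRT3 has 3, with 47.6% G or C against 64.4% for NTN4 and 62.8% for DPYSL3, so the 2 lower genes do not share this feature. Of 4 motifs searched on both strands, none was found in the 3 stretches. TATAAA (the TATA box) occurs in 11.1% of all promoters, GGGCGG (a GC box) in 42.3%, CCAAT in 33.0% and CACGTG (an E box) in 6.49%. The GC box occurs in 71.0% of the guidance promoters. No motif contains another. Promoters were found for 62 of the 73 guidance genes, and their median G or C content was 65.0%, against 58.0% for all promoters. The arrays measured RNA and not promoter use, so which start the cells used is unknown.

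The arrays were alike in scale, with median intensities between 182.5 and 185.5. C12orf75, the gene of OCC-1, stood at 42.5% of control in line 1 and 32.5% in line 2. Which of its transcripts the probe set detects is not known here. Log2 differences over all probe sets had an SD of 0.10 for line 1 against line 2, of 0.18 for line 1 against control and of 0.17 for line 2 against control. Of the markers of intestinal epithelium, all 8 measured of 9 listed passed the filter, among them EPCAM, CDH1, VIL1 and CDX2. KRT20 passed narrowly, with 185.4 and 185.8 in lines 1 and 2, against 182.2 in the control. This KRT20 control value is under the filter threshold. On each array KRT20 was dimmer than the 4 neuronal markers above the filter, so passing the filter does not by itself show expression. EPCAM, a surface antigen of epithelia, had 5602 and 5911 in the knockdown lines, against 3930 in the control. In limma EPCAM (adjusted p = 0.0090) and the adherens junction gene CDH1 (adjusted p = 0.021) were higher in the knockdown lines, and the other 6 were not called. Among these CDH17 had 3169 and 2961 in the knockdown lines, against 3387 in the control, and KRT18 and CDX2 lay on both sides of it. Of 10 neuronal markers 4 passed the filter and none was called. SYP had 426 and 422 in the knockdown lines, against 454 in the control, and STMN2 had 354 and 355 against 373. ELAVL3 had 293 and 336 against 333, and SNAP25 had 220 and 226 against 236. RBFOX3 and MAP2 were among the neuronal markers below the filter. RBFOX3 had 125 and 145 in lines 1 and 2, against 140 in the control, and MAP2 had 105 and 111 against 117. The summed intensity of the 10 was 1891 and 1944 in the knockdown lines, against 2032 in the control. Of 6 endothelial, 6 fibroblast and 5 measured leukocyte markers, 2, 3 and 2 passed the filter and none was called. In bulk RNA, fewer cells that express a gene and less RNA per cell cannot be told apart.

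Background probes differed between the arrays with their base composition. The array carries 23 background control probe sets, named for the number of G or C bases in their probes. At 6 such bases line 1 lay 0.06 and line 2 lay 0.04 above control on the log2 scale. With 14 it was -0.09 in each line, and over all 23 it went down to -0.37 in line 1 and -0.23 in line 2. The base composition of the guidance probes is not known here, so its part in the small negative differences below was not tested. These controls also had intensities of 51.3 to 2307 on the control array, with a median of 104.2.

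Both hairpin lines were also compared with the control as 1 group in limma, fitted over all 11329 genes. With a single control array, its variation is taken to equal that of the knockdown arrays. Each p rests on the gap between the 2 lines, which may differ technically. limma draws this gap toward its usual size over all 11329 genes. A gene whose lines are nearly equal, such as NTN4 or DPYSL3, thus has an SE of 0.07 that comes mostly from the other genes. At an adjusted p under 0.05, 5 of the 46 guidance genes (10.9%) were higher and 3 (6.52%) were lower. The shares among all genes were 9.63% higher and 3.06% lower. DPYSL3 and FLRT3 are 2 of the 3 lower genes. Without the 3 genes called by size, 4 of 43 (9.30%) were higher and 1 of 43 (2.33%) was lower. NTN4, EPHA4, SEMA3C, PLXNC1 and SEMA3A formed the higher group, which is a share near the background. SEMA3C had a control intensity of 152, under the filter threshold, and was kept through its knockdown values of 224 and 202. With the filter at the 60th percentile or the mean of all probe sets SEMA3C fell below the filter. Its place among the 5 therefore depends on these choices, and nothing is read from it. DPYSL3, FLRT3 and EPHA2 formed the lower group. The median log2 difference of the 46 was -0.07 in line 1 and -0.04 in line 2, against -0.03 and -0.02 for all genes. Of the 46, 13 were above control in both lines, 23 below it in both, and 10 on different sides. Over all 11329 genes these counts were 4138, 5181 and 2010, so more genes were below than above there too.

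**Figure D1:**
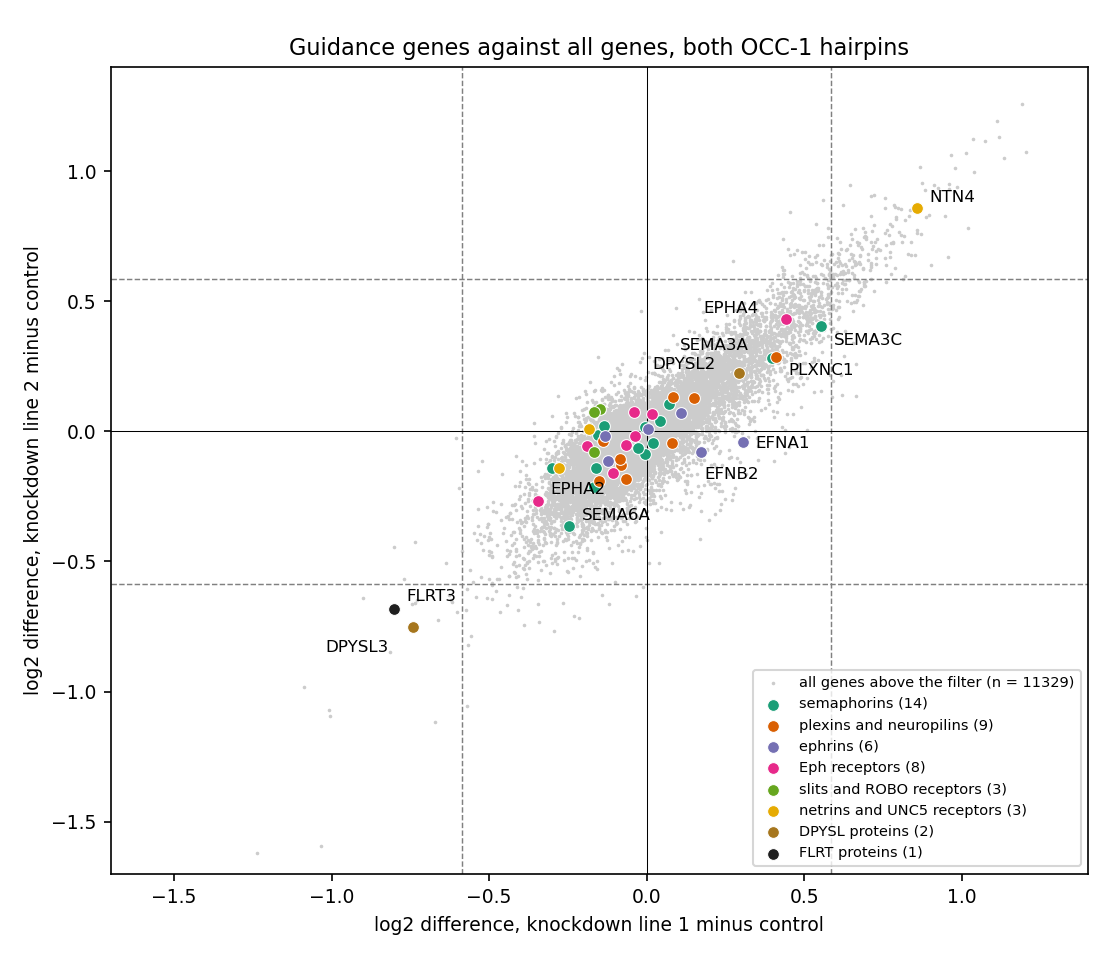
Log2 difference from control in knockdown line 1 (x axis) and line 2 (y axis) for the 46 guidance genes above the intensity filter, coloured by class, over all 11329 genes in grey, with dashed lines at 1.5-fold. NTN4 lies beyond the dashed lines at the upper right and DPYSL3 and FLRT3 at the lower left, and the other 43 lie between -0.36 and 0.55 on both axes. Both axes use the same control array.

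Among the semaphorins, SEMA3A and SEMA3C, both secreted class 3 forms, were called higher in limma on their brightest probe sets. SEMA3A, which signals through neuropilin 1 and A-type plexins, had intensities of 555 and 512 in knockdown lines 1 and 2, against 422 in the control. Both lines lay above the control, by a mean log2 difference of 0.34 ± 0.08 (SE, limma adjusted p = 0.042). Averaging its probe sets gave a difference of 0.25, and the call was lost (adjusted p = 0.081). Its second probe set had 346 and 311 in the lines, against 294 in the control, which is the same direction at a smaller size. SEMA3C, a neuropilin ligand known from heart outflow development, had 224 and 202 in the knockdown lines, against 152 in the control. Its difference of 0.48 ± 0.09 (SE, limma adjusted p = 0.017) rests on 1 of 6 probe sets. The control value alone is under the filter threshold of 184, so SEMA3C was kept through the knockdown lines and nothing is read from its call. The other 5 probe sets were all below the filter and differed from control by -0.18 to 0.12.

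The other 12 semaphorins above the filter were not called and spanned -0.36 to 0.10 in the 2 lines. SEMA6A, a transmembrane semaphorin that binds A-type plexins, had 831 and 767 in the knockdown lines, against 986 in the control. The knockdown values were the lower ones on all 4 of its probe sets, with a mean difference of -0.30 ± 0.08 (SE) on the brightest that missed the threshold (limma adjusted p = 0.057). SEMA7A, which is anchored to the membrane by a lipid, had 397 and 445 against 489 in the control (limma adjusted p = 0.16). SEMA4B, a class 4 transmembrane form, had 466 and 452 against 524 (limma adjusted p = 0.14). Knockdown values were thus below control for these 3, by 1.10-fold to 1.29-fold. SEMA5B lay close to control, with 237 and 240 against 238 and a 95% interval of the difference from -0.17 to 0.18. SEMA4G did so too, with 328 and 327 against 318 and an interval from -0.13 to 0.21. On their brightest probe sets SEMA3B, SEMA4C and SEMA4F lay within 0.09 of control in both lines, while a dimmer SEMA3B probe set was above it by 0.22 and 0.19. SEMA3D, SEMA3E, SEMA4A, SEMA5A, SEMA6B and SEMA6D were below the filter.

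Semaphorin receptors moved little apart from PLXNC1. PLXNC1, the receptor of SEMA7A, had 388 and 357 in knockdown lines 1 and 2, against 292 in the control. Both lines were above the control, with a difference of 0.35 ± 0.08 (SE, limma adjusted p = 0.040). Averaged over its probe sets, the difference was 0.21 and the call was lost (adjusted p = 0.082). Its second probe set was below the filter and had 113 in each line against 108 in the control. The 3 B-type plexins above the filter were below control in both lines without a call. PLXNB2 had 1529 and 1487 in the lines, against 1697 in the control, with an interval of the difference from -0.35 to 0.01 (limma adjusted p = 0.17). PLXNB1 had 602 and 555 against 630, and PLXNB3 had 297 and 293 against 315. PLXNA1 and PLXNA3 were likewise under control in both lines, by at most 1.10-fold, and PLXND1 was above it by 1.06-fold and 1.09-fold. PLXNA2 and PLXNA4 were below the filter.

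Neuropilins gave an uneven picture across probe sets. The brightest NRP1 probe set had 301 and 276 in the knockdown lines, against 285 in the control, and lay on both sides of it. A second NRP1 probe set above the filter had 218 and 240 in the lines, against 164 in the control, a log2 difference of 0.41 and 0.55. Its control value is under the threshold of 184, so it was kept through the knockdown lines. The other 4 were below the filter and within 0.10 of control. NRP2 had 205 and 202 in the knockdown lines, against 185 in the control (limma adjusted p = 0.25). Its other 8 probe sets were all below the filter.

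No ephrin was called, and 2 ephrins had the widest gaps between the lines among the 46 genes. EFNA1, a lipid-anchored ephrin and ligand of EPHA2, had 696 in knockdown line 1 and 548 in line 2, against 563 in the control. Line 1 was thus 1.24-fold of control while line 2 was close to it, with a gap of 0.35 between the lines. The second EFNA1 probe set showed the same order, with 368 and 294 in lines 1 and 2, against 322 in the control. EFNB2, a transmembrane ephrin known from vessels and the crypt, had the second widest gap at 0.25. Its brightest probe set had 1671 and 1404 in the lines, against 1484 in the control. The other 2 above the filter were below control in both lines, with 446 and 388 against 530, and with 197 and 174 against 235. The probe sets of EFNB2 therefore differ in direction in line 1. EFNB3 had 323 and 325 against 352 in the control (limma adjusted p = 0.33), EFNA4 had 443 and 432 against 411, and EFNA5 had 242 and 243 against 241. The lines were within 0.01 of each other for EFNB3 and EFNA5. EFNA2 and EFNB1 were below the filter.

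The Eph receptors included 2 called genes of opposite direction. EPHA4, which binds ephrins of both classes, had 865 and 859 in knockdown lines 1 and 2, against 636 in the control. Both lines were about 1.35-fold of control, with a difference of 0.44 ± 0.07 (SE, limma adjusted p = 0.014). The other 3 EPHA4 probe sets, all above the filter, did not share this: 360 and 357 against 386, 314 and 330 against 374, and 274 and 277 against 257 in the control. With the mean of its probe sets EPHA4 differed from control by 0.05 and was no longer called (adjusted p = 0.58, against 0.0013 to 0.018 under the other 5 settings). EPHA2, a receptor abundant in epithelia, had 344 and 363 in the knockdown lines, against 436 in the control. Both lines were below control, by 1.27-fold and 1.20-fold, with a difference of -0.31 ± 0.08 (SE, limma adjusted p = 0.047). Its second probe set, below the filter, had 149 and 153 against 169, the same direction. EPHA2 passed narrowly, and its adjusted p ranged from 0.019 to 0.062 over the 6 alternative settings.

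The remaining 6 Eph receptors above the filter lay between -0.19 and 0.07 of control. EPHB4, a receptor of EFNB2, had 658 and 633 in the knockdown lines, against 707 in the control (limma adjusted p = 0.28), and its 5 probe sets were all below control in both lines. EPHA1 had 414 and 428 against 408, and EPHA7 had 380 and 411 against 390. EPHB1 had 1088 and 1100 in the lines, against 1140 in the control, but its other 5 probe sets were below the filter. EPHB6, whose kinase domain is inactive, had 256 and 280 against 291, and EPHA10 had 221 and 224 against 227. EPHA3, EPHA5, EPHA6 and EPHA8 were below the filter.

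NTN4 stood alone among the netrins. NTN4 had 907 and 908 in knockdown lines 1 and 2, against 501 in the control. The lines were nearly equal and both well above the control, with a difference of 0.86 ± 0.07 (SE, 95% interval 0.68 to 1.03, limma adjusted p = 0.0040). The second NTN4 probe set, also above the filter, had 234 and 238 in the lines, against 241 in the control, and so showed no increase. With the mean of both the difference was 0.41 (limma adjusted p = 0.014), and neither line reached 1.5-fold. NTN3 had 187 and 206 in the knockdown lines, against 228 in the control, with a difference of -0.21 ± 0.09 (SE, limma adjusted p = 0.15). NTN1, the classical attractant, was below the filter, with 135 and 147 in the lines against 147 in the control, as was NTN5. Of the netrin receptors UNC5B passed the filter, with 266 and 305 against 302 in the control. UNC5A, UNC5C and UNC5D were below it, and so was DCC, with 108 and 112 in the lines against 120 in the control.

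Slits and their receptors were mostly dim. SLIT1, SLIT2, SLIT3 and ROBO2 were below the filter, with no probe set of theirs further than 0.16 from control in either line. ROBO1 had 221 and 260 in the knockdown lines, against 245 in the control. ROBO3, known from midline crossing, had 243 and 287 against 273, and its gap of 0.24 between the lines was the third widest. ROBO4, known from endothelium, had 216 and 229 against 242 (limma adjusted p = 0.33). Line 1 was below control for all 3 ROBO genes, and line 2 was above it for 2 of them.

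FLRT3 was lower on every probe set. The brightest had 1143 and 1241 in knockdown lines 1 and 2, against 1993 in the control. The second had 1046 and 1183 against 1735, and the third 317 and 325 against 412. Both lines were below the control on each of the 3, with 1 value per array. The log2 difference of the brightest was -0.74 ± 0.08 (SE, 95% interval -0.94 to -0.55, limma adjusted p = 0.0053). The second probe set was 1.66-fold and 1.47-fold lower, just short of 1.5-fold in line 2. The third differed from control by -0.38 and -0.34 on the log2 scale. With the mean of its probe sets FLRT3 differed by -0.58 (limma adjusted p = 0.0097) and no longer passed the size rule. In the annotation FLRT3 lies inside MACROD2, whose brightest probe set was below the filter with 119 and 110 in the lines, against 117 in the control. FLRT1 and FLRT2 were below the filter and lay within 0.12 of control.

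DPYSL3 and DPYSL2, both intracellular mediators, lay on different sides of control. DPYSL3 had 214.7 and 213.4 in knockdown lines 1 and 2, against 359.4 in the control. The lines were nearly equal and both below control, with a difference of -0.75 ± 0.07 (SE, 95% interval -0.92 to -0.57, limma adjusted p = 0.0049). Its second probe set, below the filter, had 135 and 123 in the lines, against 168 in the control, so the direction was the same at 1.25-fold and 1.37-fold. With the mean of both DPYSL3 differed by -0.57 (limma adjusted p = 0.0075), again without passing the size rule. The filter threshold of 184 is not far below these DPYSL3 intensities. STK32A overlaps DPYSL3 in the annotation and was below the filter, with 79.4 and 77.6 in the lines against 76.7 in the control.

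DPYSL2 had 1381 and 1316 in the knockdown lines, against 1126 in the control. Both lines were above control, with a difference of 0.26 ± 0.08 (SE) that missed the threshold (limma adjusted p = 0.072). A second DPYSL2 probe set had 938 in each line against 669, a difference of 0.49, and the third above the filter had 226 and 244 against 241. Of the 3 probe sets above the filter, 2 were thus above control and 1 lay on both sides of it. DPYSL4 and DPYSL5 were below the filter.

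**Figure D2:**
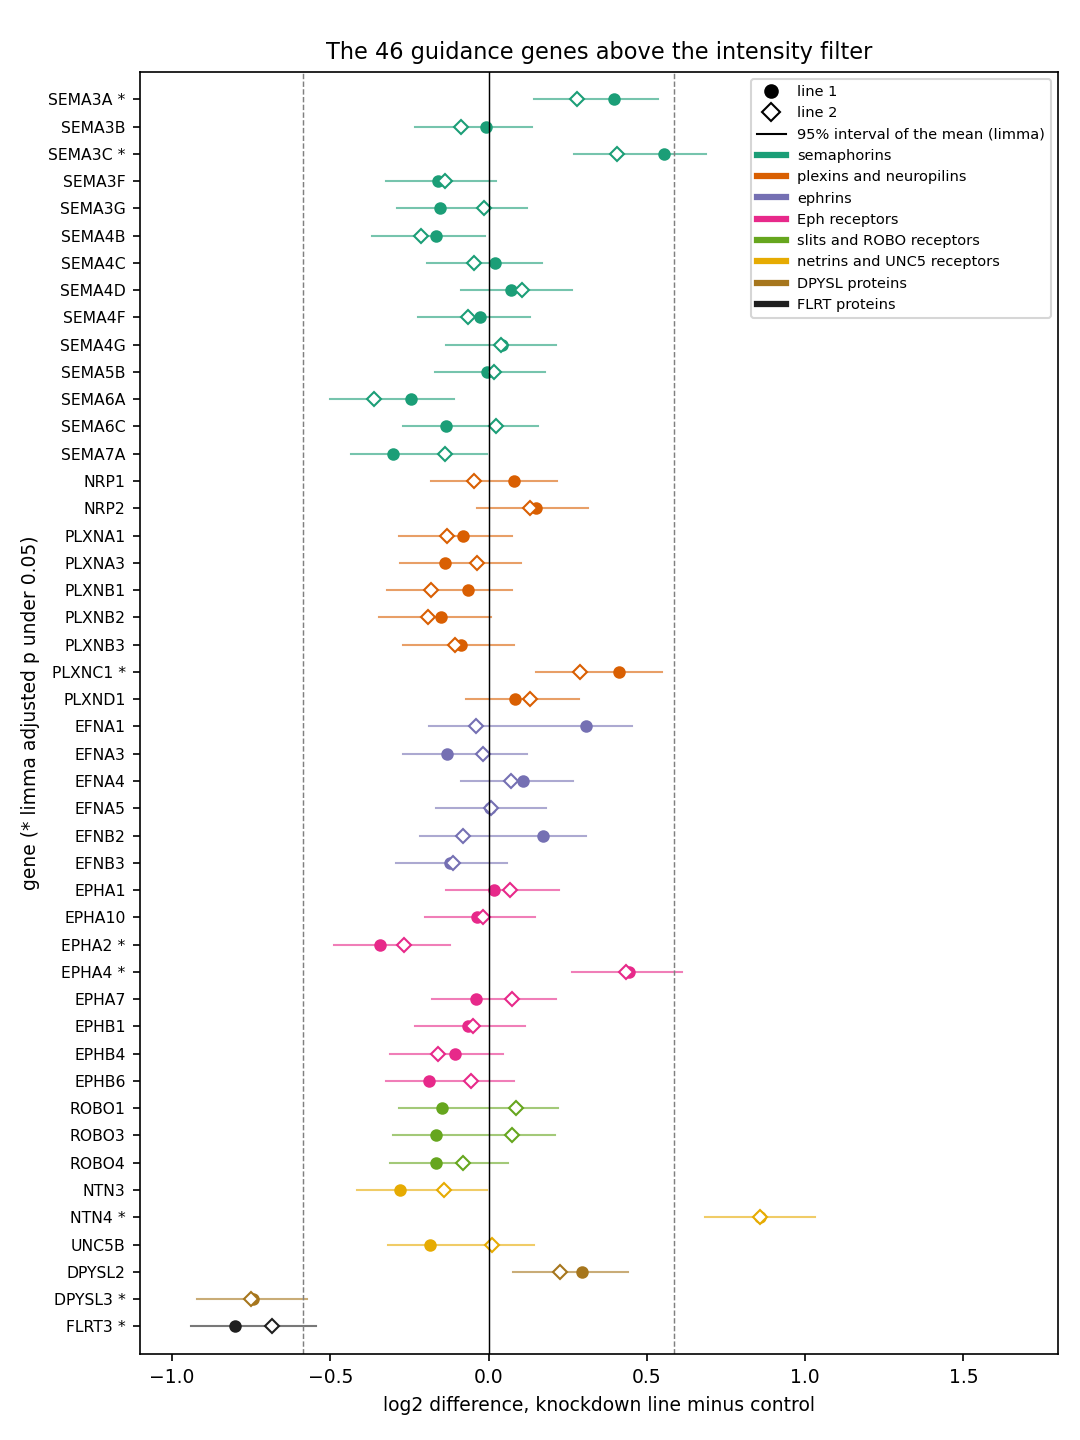
Log2 difference from control in knockdown line 1 (filled circles) and line 2 (open diamonds) for each of the 46 guidance genes above the filter, ordered by class, with the limma 95% interval of the mean difference as bars. Dashed lines mark 1.5-fold and asterisks mark the 8 genes with an adjusted p under 0.05. Most intervals include 0, and those of NTN4, DPYSL3 and FLRT3 are the ones furthest from it.

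Agreement between probe sets of a gene was examined across the group, since NTN4 and EPHA4 had shown disagreement. Of the 46 genes 26 had several probe sets above the filter. The mean differences of all these probe sets had a single sign in 17 genes and both signs in 9. The same count was not made over all genes, so it has no background. Some of the genes with both signs lie close to 0, such as SEMA5B with -0.002 and 0.005. The range within a gene had a median of 0.12, and it was widest in NTN4 (0.89), EPHA4 (0.65) and DPYSL2 (0.52), followed by NRP1 (0.47), EFNB2 (0.39) and FLRT3 (0.38). Of 85 guidance probe sets above the filter 1 was 1.5-fold higher in both lines, where the share among all 22670 probe sets with a single gene was 1.41%. The rule found 2 of the 85 lower, where the share among all was 0.11%. These 3 probe sets belonged to NTN4, DPYSL3 and FLRT3, and the lower ones are those of the genes picked with results known. Of the 216 probe sets 17 end in _x_at and 19 in _s_at, names that the manufacturer gives to probe sets that may detect other transcripts as well. None of the probe sets of NTN4, DPYSL3 and FLRT3 has such a name. The SEMA3C probe set above the filter, the second NRP1 probe set and the brightest DPYSL2 probe set do end in _s_at.

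**Figure D3:**
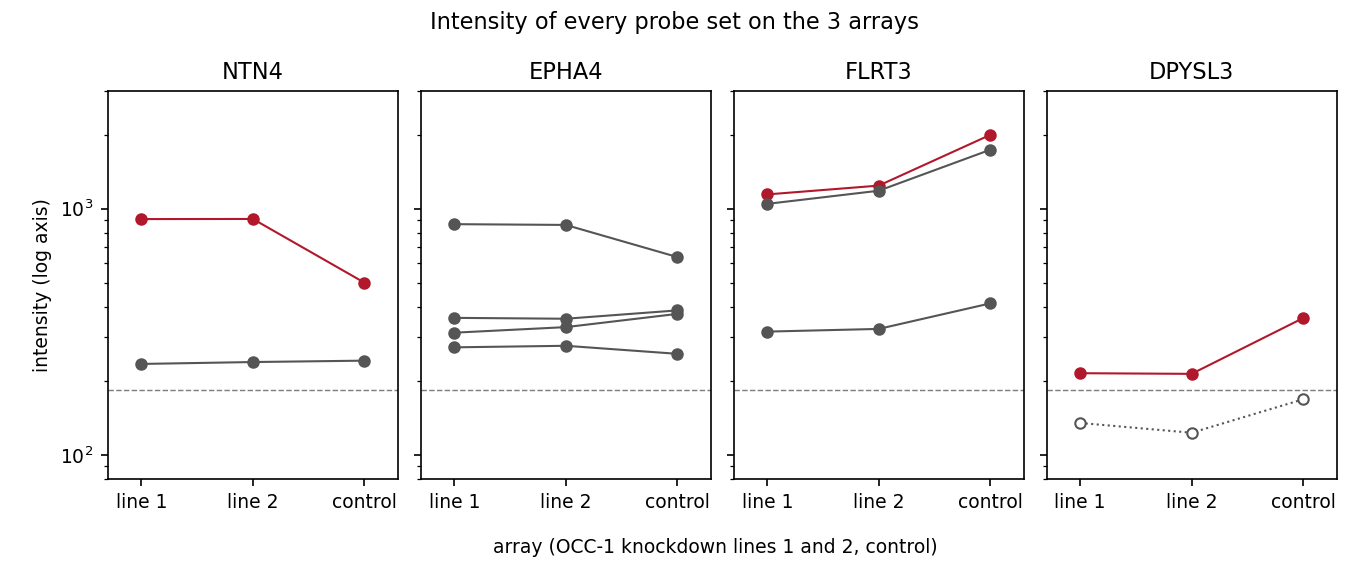
Intensity (log axis) of every probe set of NTN4, EPHA4, FLRT3 and DPYSL3 on the arrays of knockdown line 1, knockdown line 2 and the control, with lines joining the values of a probe set. Red marks probe sets at least 1.5-fold from control in both lines, open symbols mark probe sets below the filter, and the dashed line is the filter threshold of 184. All 3 FLRT3 and both DPYSL3 probe sets are lower in the knockdown lines, while 1 of 2 for NTN4 and 1 of 4 for EPHA4 stand clearly higher.

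**Figure D4:**
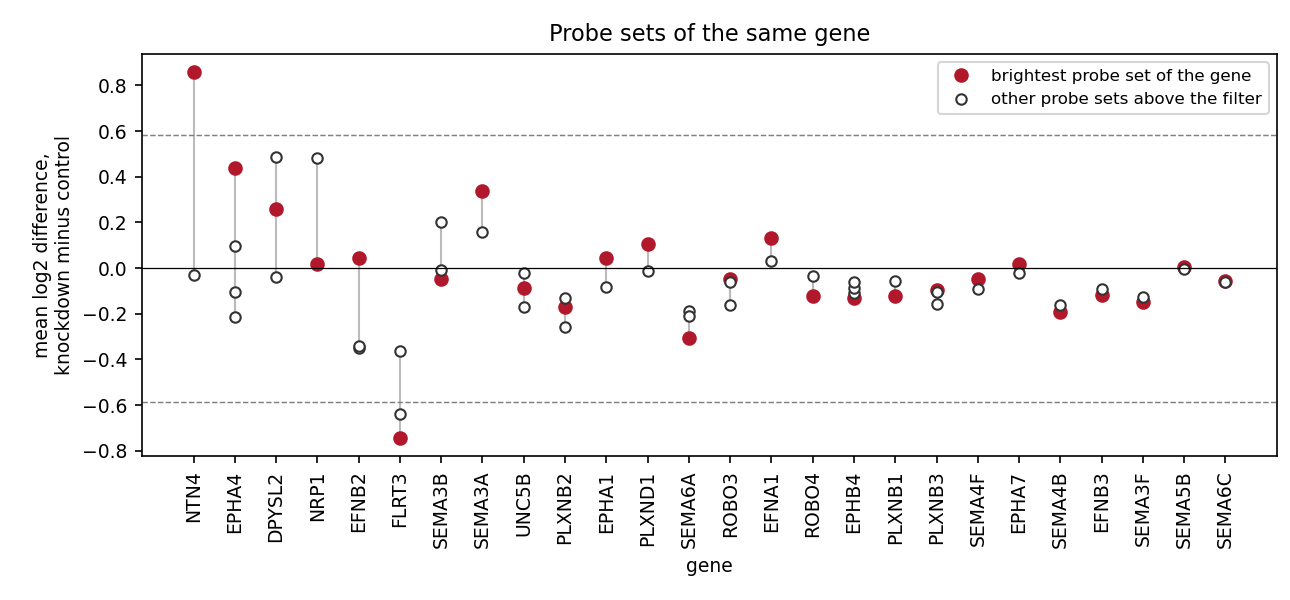
Mean log2 difference of the knockdown lines from control for each probe set above the filter, in the 26 guidance genes that have several, with the brightest of each gene in red and dashed lines at 1.5-fold. Genes run from the widest range on the left (NTN4, 0.89) to the narrowest on the right, and FLRT3 has all 3 probe sets below 0.

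Below the filter lay 27 guidance genes and 131 guidance probe sets. These probe sets had medians of -0.07 (line 1) and -0.03 (line 2) on the log2 difference scale, against -0.05 and -0.02 for all 22318 such probe sets. None of the 131 was 1.5-fold from control in both lines, and they spanned -0.45 to 0.27. The lowest value belonged to the second DPYSL3 probe set. Just above the filter lay EFNA3, SEMA3C and SEMA3G, at 0.03, 0.05 and 0.08 on the log2 scale over it, and just below EPHA8, SEMA5A and SEMA4A, at -0.01, -0.03 and -0.03. A low intensity does not show that a gene is silent. A further probe set names PLXNB3 together with SRPK3 and was left out.

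Partners of these families were taken as a second list of 78 genes, of which 72 were on the array and 59 above the filter. In limma 6 of the 59 rose (10.2%) and 2 fell (3.39%), where all genes gave 9.63% and 3.06%. The list's median difference was -0.02 in line 1 and 0.00 in line 2. All values of this list are those of the brightest probe set of each gene, and its other probe sets were not compared. DOCK1, an exchange factor for RAC that acts downstream of netrin and its receptor DCC, had 712 and 749 in the knockdown lines, against 440 in the control. It was 1.62-fold and 1.70-fold higher (limma adjusted p = 0.0051) and was the only one past the size rule, which is 1.69% of the 59 where all genes gave 1.36%. ENAH, an actin regulator at growth cone tips, had 1901 and 1752 against 1178 (limma adjusted p = 0.0073). NRCAM, an adhesion protein that pairs with neuropilin 2, had 522.2 and 566.7 against 362.7 (limma adjusted p = 0.0092). These 3 lay above the control on both knockdown arrays, by 1.44-fold or more. The receptor regulator LRIG1, the kinase ROCK1 and the sheddase ADAM17 also rose, by 1.21-fold to 1.47-fold. ROCK2, a kinase downstream of RHOA, fell, with 664 in each line against 836 in the control (limma adjusted p = 0.031). EVL, a relative of ENAH, fell as well, with 202 and 190 against 242 (limma adjusted p = 0.049).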

How the data were processed

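Total RNA of 3 Caco-2 cultures was labelled with biotin as cRNA and hybridised to expression arrays, per the labels' protocols. Groups were taken from the genotype label (OCC-1 knockdown, n = 2 hairpins; control, n = 1). The authors deposited linear intensities, 1 for each probe set on each array, between 50.1 and 19619. The submitters' processing notes name RMA; its settings, the background step and the scaling are not given in the sources used here. A log2 scale had been foreseen, so the intensities were converted to log2, and nothing else was normalized.

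Gene symbols came from the array platform's annotation (44988 probe sets with 1 symbol, 1832 with several, which were not used), and 0 symbols changed on lookup in RefSeq tables (GRCh38.p14). Size calls needed 1.5-fold in both lines, which allows no test. limma 3.58.1 (R 4.3.3; lmFit, eBayes, two-sided, Benjamini-Hochberg over 11329 genes, threshold 0.05) had 1 residual degree of freedom and 6.96 after moderation. Named were DPYSL3 and FLRT3, called genes, the 2 largest differences per class, the 3 widest gaps between lines and genes with a probe set at 1.5-fold in both lines beside another above the filter that was not. Intensities of further members were added after their values were seen. Members and lists were chosen with earlier results of these data known. Both procedures were run on simulated data in which the control array varied as the 2 lines do. That run cannot show whether the real control array did so. Alternatives covered probe set choice, filter, normalization, background, size threshold and each line alone. The number of arrays limits the precision. Python 3.11.15 with pandas 2.3.3 was used for the rest.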

Additional observations from a re-analysis of the deposited data

How the results depend on the processing

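NTN4 as the 1 higher and DPYSL3 and FLRT3 as the 2 lower genes by size were found again without an intensity filter, with a stricter one at the 60th percentile, after quantile normalization, cyclic loess or normexp (1 higher and 2 lower each time). A changed filter leaves the differences of a gene as they are, so the filter settings did not test the size of these 3 again. In either line alone these 3 pass by the construction of the rule, and no other guidance gene passed. Averaging every probe set of a gene left 32 guidance genes above the filter in place of 46, and 9481 genes in place of 11329. Among the 32, 0 were higher and 0 lower by size, and 1 was higher and 2 lower in limma in place of 5 and 3. The other settings gave 4 to 6 higher and 2 to 4 lower genes in limma. Over all genes the same settings gave 991 to 1495 higher and 290 to 789 lower, so the background moved as well. At 1.3-fold 3 genes were higher and 2 lower, and at 2-fold 0 and 0. The share among all genes was not counted at these thresholds, so nothing is read from these counts.

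DPYSL3 ranged from -0.78 to -0.57 over the 6 settings, with limma adjusted p from 1.7e-05 to 0.0093, and FLRT3 from -0.79 to -0.58, with adjusted p from 2.5e-05 to 0.0097. Lines 1 and 2 alone gave -0.74 and -0.75 for DPYSL3 and -0.80 and -0.68 for FLRT3, with no test. The median difference in line 1 was -0.088 with the mean of all probe sets and -0.104 after quantile normalization. In line 2 it was -0.019 without the filter and -0.0047 after cyclic loess.

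For the other called genes these settings were applied after their values were seen. NTN4 stayed under the threshold in all 6 (adjusted p at most 0.014). EPHA4, PLXNC1 (adjusted p = 0.082), SEMA3A (0.081) and EPHA2 (0.062) lost their call with the mean of all probe sets, and EPHA2 also with the stricter filter (0.051). SEMA3C fell below the filter under these 2 settings, so no value was had. SEMA6A gained a call under 3 settings and DPYSL2 under 2. The causes were not tested. Over all genes, averaging gave 44 higher and 9 lower by size in place of 154 and 18, and 660 higher in limma in place of 1091. The count lower in limma, 347, became 713 without the filter and 789 after quantile normalization. No paired analysis was possible because the groups share fewer than 2 replicate numbers. With 1 array per culture no setting can separate a deviating control array from a difference shared by both lines, and intensities near background limit what dim genes can show.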
